A study of Mus musculus with 2 samples.

Results

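The 10 genes described here govern passage from G1 into S phase of the cell cycle: the cyclin-dependent kinase (CDK) inhibitors Cdkn1a, Cdkn1b, Cdkn2b and Cdkn2c, the retinoblastoma gene Rb1, the D-type cyclins Ccnd1, Ccnd2 and Ccnd3 and the E-type cyclins Ccne1 and Ccne2. They were chosen by name, matched to the germ cell count table through their Ensembl identifiers and followed in every group. All 10 were found among the 42422 genes of the table, and all 10 were among the 15252 genes with enough counts to be tested.

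D-type cyclins bind CDK4 or CDK6, and E-type cyclins bind CDK2; both kinase complexes phosphorylate the retinoblastoma protein, which otherwise holds E2F transcription factors inactive and keeps a cell in G1. The INK4 inhibitors p15 (Cdkn2b) and p18 (Cdkn2c) block CDK4 and CDK6, whereas the CIP/KIP inhibitors p21 (Cdkn1a) and p27 (Cdkn1b) act mainly on cyclin E-CDK2. In foetal mice, XY germ cells stop dividing in G1/G0 after the gonad has become a testis, while XX germ cells of the ovary leave the mitotic cycle by replicating their DNA and entering meiotic prophase.

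Germ cells were sorted for green fluorescence from Oct4-eGFP gonads, the reporter being active in germ cells, at embryonic day (E) 12.5 or after whole gonads had been cultured with the mesonephros attached, and messenger RNA was counted from its poly(A) end with unique molecular identifiers (UMIs). Foetuses came from 129T2svJ Oct4-eGFP males and Swiss females, and each sample pooled the gonads of several foetuses. The 10 groups of 4 libraries were XX and XY germ cells before culture (0 h), XX and XY germ cells after 24 h or 72 h with the vehicle DMSO, and XY germ cells after 24 h or 72 h with BGJ398 (FGFRi), which inhibits FGF receptors, or PD0325901 (MEKi), which inhibits MEK1/2, each at 500 nM. No XX gonads were given an inhibitor, so the effects of the inhibitors were read in XY germ cells alone. Only the 72 h MEKi group was also set against XX cells, which had DMSO. The inhibitors reached all cells of the gonad, somatic cells included.

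Libraries held 1178953 to 5199153 UMI counts, with a median of 2135128.5. They were sequenced in 2 pools of 20: the 0 h groups, the 24 h DMSO groups and the 24 h MEKi group formed the first, and the 24 h FGFRi group with every 72 h group the second. Comparisons of 72 h with earlier times, and of 24 h FGFRi with DMSO, are therefore also comparisons between pools, and the 2 cannot be told apart. The sexes at each time, 24 h against 0 h, 24 h MEKi against DMSO and all 72 h groups were compared within a pool. The 6 germ cell markers (Ddx4, Dazl, Dppa3, Dnd1, Pou5f1 and Mael) summed to 2089 to 5640 CPM (counts scaled to a common library total after TMM scaling) in every library, and 35 markers of Sertoli, granulosa, interstitial, endothelial, blood and mesonephric cells summed to 152 to 665 CPM. In these bulk samples a lower share of cells with a transcript and less of it per cell cannot be told apart.

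Every member but Cdkn2c had counts in all 40 libraries, and Cdkn2c, in GRCm39 on chromosome 4 at 109517957 to 109524386, had none in 1 library and at most 37 UMIs in any. Cdkn2b, on the same chromosome at 89223204 to 89229276, had 1 to 75 UMIs, so single libraries of these 2 INK4 genes rest on few molecules. Cdkn1a and Ccnd3 lie on chromosome 17 (29309936 to 29319701 and 47815767 to 47910624), Cdkn1b and Ccnd2 on chromosome 6 (134897364 to 134902476 and 127102125 to 127129156), Ccnd1 and Ccne1 on chromosome 7 (144483668 to 144493662 and 37797404 to 37808264), Ccne2 on chromosome 4 (11190303 to 11204947) and Rb1 on chromosome 14 (73421113 to 73563507). The 3′ end of Rb1 overlaps the long non-coding gene Gm17233 on the same strand, so reads there could be split between them and the Rb1 level is uncertain. Other genes of the table that overlap members lie on the opposite strand, and reads were assigned by strand.

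RefSeq start sites (GRCm38.p6) were matched for 6 of the 10 members, with 9 promoters between them. Cyclin E1 and p27 are shown because Ccne1 fell furthest and Cdkn1b rose as XY germ cells were cultured, and the 250 bases before each start site are printed 5′ to 3′ on the gene's strand. The Ccne1 window is chr7:38107491-38107740 on the minus strand and the Cdkn1b window chr6:134920151-134920400 on the plus strand. Capitals mark the GC box GGGCGG on either strand.
Ccne1: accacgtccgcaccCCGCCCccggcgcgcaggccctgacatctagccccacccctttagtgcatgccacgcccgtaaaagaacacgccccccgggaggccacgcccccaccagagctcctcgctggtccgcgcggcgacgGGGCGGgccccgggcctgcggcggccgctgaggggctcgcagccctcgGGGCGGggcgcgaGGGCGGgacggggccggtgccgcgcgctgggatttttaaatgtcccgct
Cdkn1b: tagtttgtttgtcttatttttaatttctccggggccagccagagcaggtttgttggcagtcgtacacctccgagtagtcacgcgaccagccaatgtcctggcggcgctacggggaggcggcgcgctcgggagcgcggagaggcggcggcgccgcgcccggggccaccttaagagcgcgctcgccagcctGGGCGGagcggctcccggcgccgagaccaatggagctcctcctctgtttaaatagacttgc
The GC box occurred 4 times in the Ccne1 window and once in that of Cdkn1b, and 32.7% of 32851 promoters of this length held it. The E2F words TTTCCCGC, TTTGGCGC, TTTCGCGC and TTTGCCGC, searched on both strands, were found in none of the 9 member windows and in 1.86% of all promoters. These letters are a description of the window only.

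**Figure D1:**
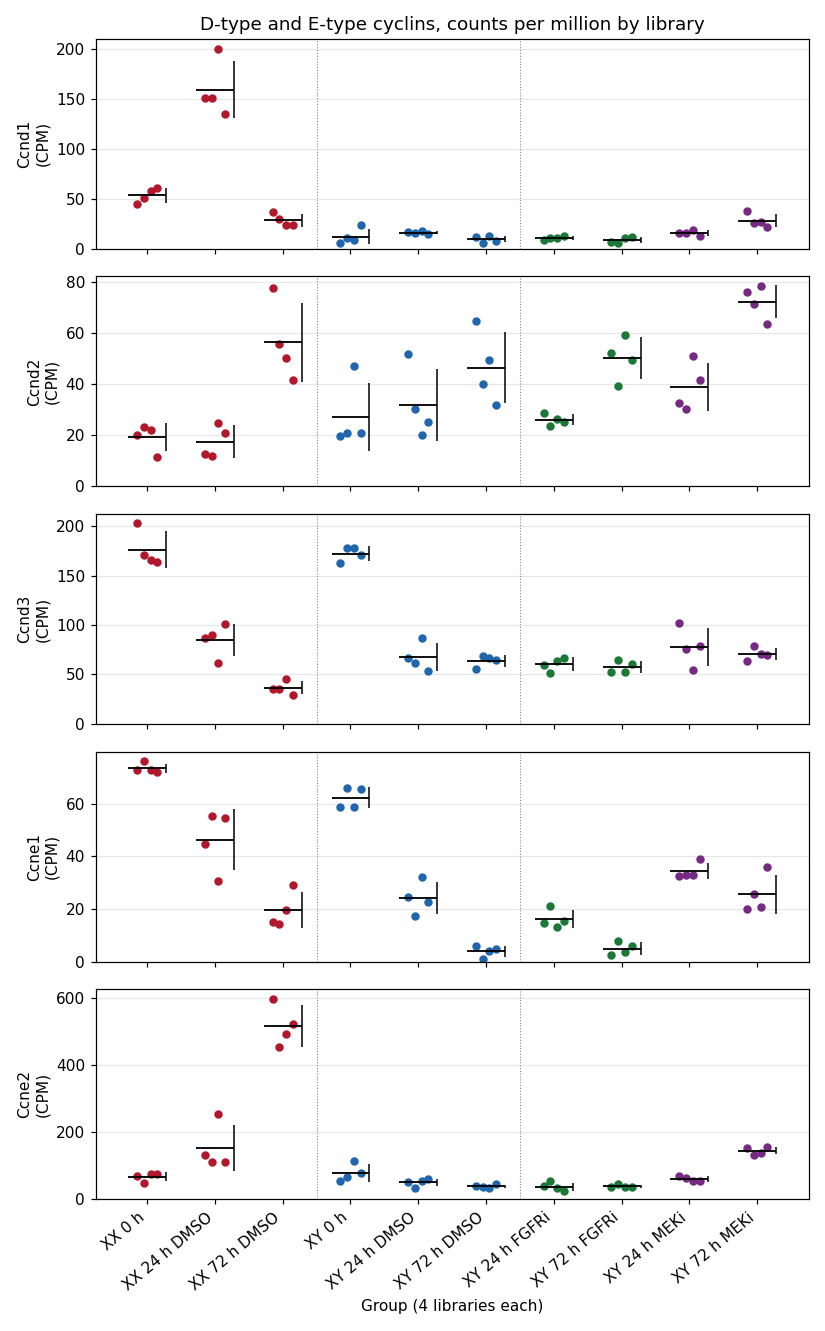
CPM (vertical axes, linear from 0) of the D-type and E-type cyclins in the 40 libraries of the 10 groups (horizontal axis); points are libraries, horizontal lines group means and vertical lines 1 SD either side. XX libraries are red, XY 0 h and DMSO libraries blue, FGFRi green and MEKi purple; Ccne2 reached 452 to 597 CPM in XX germ cells at 72 h, and Ccne1 was under 6 CPM in XY germ cells at 72 h with DMSO.

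In XY germ cells cultured with DMSO, the question was how the members changed as the cells moved towards arrest. Between 0 h and 72 h, Ccne1 and Ccnd3 fell and the inhibitors Cdkn1b and Cdkn2b rose, while Rb1, Ccnd1, Ccnd2, Ccne2, Cdkn1a and Cdkn2c did not pass the test. Genes were called where the fold change exceeded 1.5 at a Benjamini-Hochberg false discovery rate (FDR) under 0.05 in limma's treat test over all genes tested. The 4 members called, 2 higher and 2 lower, stood against 35.5% of all genes called, 20.2% higher and 15.2% lower, so their number is near that of genes at large.

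Ccne1, whose product activates CDK2, was at 58.8, 65.9, 58.8 and 65.5 CPM in the 4 XY libraries at 0 h. At 24 h with DMSO the values were 24.4, 17.2, 32.3 and 22.7 CPM, and at 72 h 5.82, 0.836, 3.99 and 4.65 CPM. The 3 times did not overlap, and each step was a fall. The 24 h group was lower than the 0 h group by 1.40 ± 0.190 log2 units (SE; limma FDR 0.00268), and the 72 h group lower than the 24 h group by 2.83 ± 0.422 (FDR 1.23e-05), for an 18.8-fold lower level at 72 h than at 0 h (log2 -4.23). These sizes lean on XY 72 h DMSO replicate 4, the library at 0.836 CPM: without it the log2 differences at 72 h were -2.19 from 24 h (FDR 0.000888) and -3.58 from 0 h (FDR 5.14e-09). Without a filter on low counts the first step missed the threshold (FDR 0.0527).

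Ccnd3, the D-type cyclin with the clearest change in XY cells, was at 162, 177, 178 and 171 CPM at 0 h. It was at 66.9, 62.0, 86.6 and 53.3 CPM after 24 h and at 55.5, 69.0, 66.6 and 64.4 CPM after 72 h. The fall took place within the first 24 h (2.73-fold lower, FDR 3.14e-06), in a comparison made within 1 pool; between 24 h and 72 h the log2 difference was 0.00337 with overlapping values.

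Cdkn1b, encoding p27, was at 7.46, 4.67, 6.24 and 6.66 CPM in XY cells at 0 h and at 16.6, 22.9, 13.4 and 20.0 CPM at 24 h. All 4 libraries at 24 h stood above all 4 at 0 h (3.06-fold, log2 1.62 ± 0.308, FDR 0.0295). With 72 h values of 15.7, 13.8, 15.3 and 19.9 CPM the rise over 0 h was 2.68-fold (FDR 0.0178). The 24 h call was lost under 7 of 18 alternative settings, among them leaving out any of XY 0 h replicates 2, 3 and 6 or 24 h DMSO replicates 3 and 5; without XY 0 h replicate 3 the 72 h call was lost too (highest FDR over all settings, 0.437 and 0.162).

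Cdkn2b, encoding p15, was at 0.439, 2.59, 3.56 and 0.784 CPM in XY cells at 0 h and at 5.82, 9.20, 14.0 and 6.64 CPM at 72 h. The groups did not overlap and the difference was 2.31 ± 0.485 log2 units (FDR 0.00164), held in all 18 settings. The intermediate 24 h values, 4.67, 3.65, 3.44 and 4.06 CPM, did not differ from either end beyond the test (FDR 0.848 against 0 h and 0.356 for 72 h against 24 h).

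Cdkn1a encodes p21. Its XY libraries held 38.6, 34.0, 36.5 and 48.2 CPM at 0 h, 61.2, 73.5, 43.3 and 62.0 CPM at 24 h, and 15.2, 26.8, 17.3 and 19.9 CPM at 72 h. The 24 h group was the highest, and the 72 h group lay below both earlier groups. The fall from 24 h to 72 h was 3.03-fold (FDR 1.60e-04), whereas 72 h against 0 h missed the threshold (log2 -0.99, FDR 0.113; called by edgeR and by limma without the fold threshold in the null). In this last step 2 members were called, both lower, beside 27.3% of all genes called and 11.3% called lower.

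The remaining XY members did not pass the test. Rb1 had group means of 34.0 ± 5.17 CPM at 0 h, 49.4 ± 7.84 at 24 h and 43.7 ± 2.75 at 72 h (SD, n = 4), and was called in none of the 18 comparisons made. Its largest XY difference was 0.585 log2 units, at 24 h against 0 h, and was called only by limma without the fold threshold in the null. Ccnd1 stayed between 6.14 and 23.5 CPM in the 12 XY libraries at 0 h or with DMSO, and Cdkn2c between 0.439 and 5.31 CPM. Ccnd2 had means of 27.2 ± 13.4, 31.8 ± 14.0 and 46.4 ± 14.0 CPM at 0, 24 and 72 h (SD, n = 4); 72 h against 0 h gave 1.02 log2 units at FDR 0.0873, past the threshold in 5 of 18 settings. Ccne2 was at 52.7, 67.2, 112 and 78.4 CPM at 0 h and at 39.8, 34.7, 32.6 and 44.5 CPM at 72 h, 1.91-fold lower without overlap; the difference missed the threshold (FDR 0.118) and passed it in 3 of 18 settings, among them edgeR. For the first 24 h of XY culture, 3 members were called, 1 higher and 2 lower, beside 2.94% of all genes, of which 1.61% higher and 1.33% lower. In that step the summed interstitial markers were at 49.8 to 126.5 CPM at 0 h and 25.2 to 33.9 CPM at 24 h. Endothelial markers were at 106 to 121 and 37.5 to 98.7 CPM, and the sums of the other marker sets overlapped. The part of these cells in the 24 h differences was not tested.

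**Figure D2:**
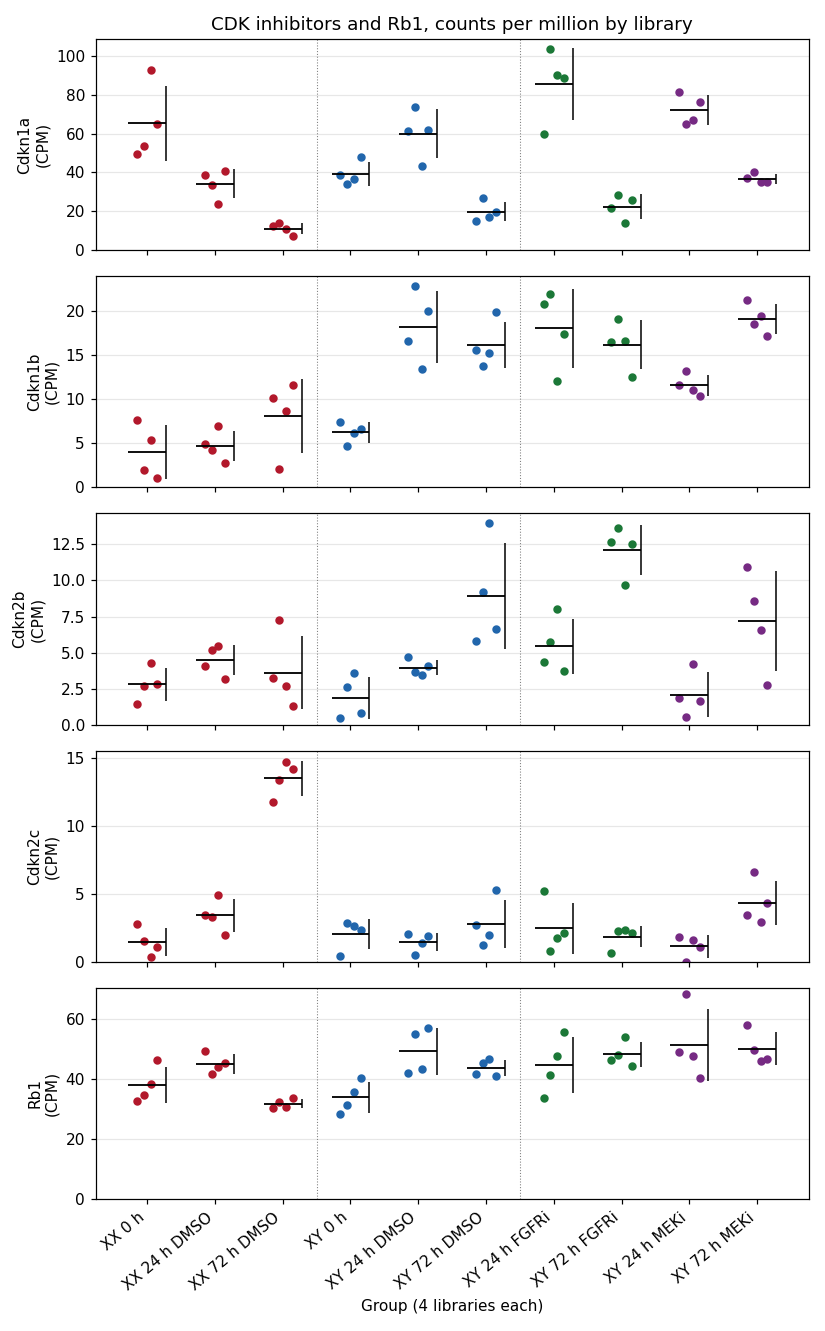
CPM (vertical axes, linear from 0) of the CDK inhibitors and Rb1 in the same 40 libraries, drawn as for the cyclins. Cdkn1b was at 13.8 to 19.9 CPM in XY germ cells at 72 h with DMSO against 4.67 to 7.46 CPM at 0 h, and Cdkn2c at 11.8 to 14.7 CPM in XX germ cells at 72 h against at most 6.63 CPM in all libraries of other groups.

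XX germ cells took another course over the same times. By 72 h Ccne2, Cdkn2c and Ccnd2 had risen and Cdkn1a, Ccnd3 and Ccne1 had fallen against 0 h, so 3 of the 10 members were higher and 3 lower, beside 37.2% of all genes called, 18.8% higher and 18.4% lower. From 24 h to 72 h, 7 were called beside 22.2% of all genes, and from 0 h to 24 h 1 beside 3.23%. Over the same course the summed endothelial markers were at 105 to 130 CPM at 0 h and 7.74 to 12.0 CPM at 72 h in XX cells, and the interstitial markers at 21.5 to 45.5 and 67.6 to 109 CPM. In XY cells with DMSO the endothelial sums were 106 to 121 CPM at 0 h and 44.3 to 47.3 CPM at 72 h, and the mesonephric sums 4.31 to 11.6 and 24.2 to 25.3 CPM. Granulosa sums were at 5.02 to 13.1 CPM at 0 h and 14.7 to 35.9 CPM at 72 h in XX cells. In XY cells with DMSO they were at 3.51 to 6.24 and 10.7 to 14.6 CPM. Blood sums in XX cells were at 26.6 to 45.0 and 15.5 to 24.1 CPM. The sums not named here overlapped between 0 h and 72 h. The part of these cells in the changes with time was not tested.

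Ccne2, the second E-type cyclin, was at 67.8, 47.5, 75.3 and 74.4 CPM in XX cells at 0 h and at 130, 110, 255 and 112 CPM at 24 h. At 72 h it reached 597, 452, 492 and 521 CPM, above every other library of the series. The 72 h level was 7.77-fold the 0 h level (log2 2.96 ± 0.152, FDR 9.99e-20) and 3.95-fold the 24 h level (FDR 3.81e-11). The 24 h group lay wholly above the 0 h group, with a difference of 0.98 log2 units that missed the threshold (FDR 0.193; called in 3 of 18 settings).

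Cdkn2c, encoding p18, rose from 2.80, 1.55, 0.388 and 1.12 CPM at 0 h to 11.8, 13.4, 14.7 and 14.2 CPM at 72 h in XX cells. The rise was 11.3-fold (log2 3.50 ± 0.493, FDR 9.12e-07). At 24 h it was at 3.42, 3.31, 4.96 and 2.00 CPM, and the rise from 24 h to 72 h was 4.21-fold (FDR 0.00384).

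Ccnd1, a D-type cyclin induced in many cells by growth signals, peaked at 24 h in XX cells. It was at 44.8, 50.6, 58.2 and 60.8 CPM at 0 h, at 151, 151, 200 and 135 CPM at 24 h, and at 36.4, 29.9, 23.4 and 23.9 CPM at 72 h. The 24 h libraries stood apart from both other times, 2.74-fold above 0 h (FDR 4.93e-06, the only member called in that step) and 5.25-fold above 72 h (FDR 5.27e-12).

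Ccnd2 was at 11.4 to 23.2 CPM in XX cells at 0 h and at 41.4 to 77.6 CPM at 72 h (3.18-fold, FDR 0.000121). Ccnd3 fell at both steps of the course in its means, from 176 ± 18.7 CPM at 0 h to 85.0 ± 16.5 at 24 h and 36.4 ± 6.57 at 72 h (SD, n = 4). The whole fall was 4.89-fold (FDR 2.94e-13), and the first step narrowly missed the threshold (log2 -0.96, FDR 0.0551; called in 6 of 18 settings). Ccne1 fell 3.88-fold from 0 h to 72 h (FDR 4.86e-07), from 72.2 to 76.1 CPM to 14.5 to 29.1 CPM.

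Cdkn1a was at 49.7, 53.7, 92.7 and 64.9 CPM in XX cells at 0 h and at 12.3, 13.9, 10.7 and 7.12 CPM at 72 h, a 6.14-fold fall (FDR 6.20e-08). Cdkn1b did not pass the test at any step in XX cells: its means were 4.04 ± 3.07, 4.74 ± 1.72 and 8.15 ± 4.23 CPM (SD, n = 4), and 72 h against 0 h gave 1.38 log2 units at FDR 0.101. That difference is called without XX 0 h replicate 4 or XX 72 h replicate 4, the latter holding 2.07 CPM beside 8.70 to 11.7 in the other 3. Cdkn2b and Rb1 showed no call in XX cells.

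Between the sexes, Ccnd1 was the member that differed at every time, higher in XX cells. Before culture it was at 44.8 to 60.8 CPM in XX and at 6.14, 10.9, 8.91 and 23.5 CPM in XY cells, 4.71-fold apart (FDR 1.32e-07), and it was the only member called, beside 3% of all genes. The 35 markers of other cell types summed to 224 to 247 CPM in XX and 230 to 553 CPM in XY libraries, of which the 8 blood genes gave 26.6 to 45.0 and 38.8 to 257 CPM. The sums of the 3 granulosa markers had a higher mean in XX cells, the way of Ccnd1, but overlapped (5.02 to 13.1 CPM in XX and 3.51 to 6.24 CPM in XY). The 9 interstitial markers went the other way (21.5 to 45.5 CPM in XX and 49.8 to 126.5 CPM in XY), and the sums of the 6 Sertoli, 5 endothelial and 4 mesonephric markers overlapped between the sexes. The part of these cells in the Ccnd1 difference was not tested, here or at the later times. The ratio was 9.51-fold at 24 h (FDR 4.10e-16) and 3.01-fold at 72 h (FDR 0.00155). At 24 h the 35 markers summed to 167.5 to 197 CPM in XX and 187 to 381 CPM in XY cells, with granulosa markers at 4.73 to 10.6 and 3.63 to 6.25 CPM, endothelial at 66.9 to 113 and 37.5 to 98.7 CPM and Sertoli at 18.9 to 27.8 and 27.2 to 155.5 CPM. At 72 h they summed to 152 to 186 CPM in XX and 241 to 267 CPM in XY cells. Granulosa markers were then at 14.7 to 35.9 CPM in XX and 10.7 to 14.6 CPM in XY cells, whereas endothelial (7.74 to 12.0 and 44.3 to 47.3 CPM), blood (15.5 to 24.1 and 30.0 to 65.0 CPM) and mesonephric markers (5.68 to 12.3 and 24.2 to 25.3 CPM) were higher in XY cells without overlap.

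At 24 h, Cdkn1b and Ccne2 differed as well, giving 3 members called beside 9.99% of all genes. Cdkn1b was 4.17-fold higher in XY than in XX cells (FDR 0.00258), at 13.4 to 22.9 against 2.79 to 6.94 CPM. Ccne2 was 2.49-fold lower in XY cells (FDR 0.0022), at 33.3 to 59.2 against 110 to 255 CPM. Both calls held in all 18 settings.

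At 72 h, 4 members were called lower in XY than in XX cells and none higher, beside 41% of all genes called and 18.1% called lower. Beyond these 4, the libraries of the sexes did not overlap for Cdkn1a, Cdkn1b, Ccnd3 and Rb1, all higher in XY cells. How many of all genes separate in this way was not counted, so the separation is not a result about the members. Ccne2 was 13.7-fold lower (log2 -3.78 ± 0.189, FDR 5.22e-21), with XY libraries at 39.8, 34.7, 32.6 and 44.5 CPM. Ccne1 was 5.61-fold lower (log2 -2.49, FDR 0.000159; -1.87 and FDR 0.00619 without XY 72 h DMSO replicate 4), Cdkn2c 5.14-fold lower (FDR 0.000364) and Ccnd1 3.01-fold lower. Every value of these 4 genes in XY cells lay under every value in XX cells. Cdkn1b at 72 h was at 13.8 to 19.9 CPM in XY and 2.07 to 11.7 CPM in XX cells, which did not overlap, yet the difference of 1.18 log2 units missed the threshold (FDR 0.108) and was 0.57 without XX 72 h replicate 4 (FDR 0.783). Cdkn1a (0.83 log2 units, FDR 0.42), Ccnd3 (0.85, FDR 0.148) and Rb1 (0.44, FDR 1) missed it too. Limma without the fold threshold in the null also called Cdkn1a, Cdkn1b, Cdkn2b and Ccnd3, all higher in XY cells. The share of all genes called by that test is not given, and the 41% above belongs to treat.

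The change of the sex difference from 0 h to 72 h was tested as an interaction, in which the pools cancel where they act on both sexes alike. XY less XX, the difference had fallen by 72 h for Ccne2 (log2 -3.89 ± 0.255, FDR 1.44e-15), Cdkn2c (-3.21 ± 0.740, FDR 0.00261) and Ccne1 (-2.27 ± 0.464, FDR 0.00205), and these calls held in all 26 settings, with Ccne1 at -1.63 without XY 72 h DMSO replicate 4. It had risen for Cdkn1a (1.63 ± 0.383, FDR 0.0181), a call lost in 4 settings, among them leaving out XX 72 h replicate 8 or XY 72 h DMSO replicate 4 (highest FDR over all settings, 0.164). It had also risen for Cdkn2b (2.23 ± 0.710, FDR 0.0437), but that call was lost in 13 of 26 settings, 9 of them the removal of a single library (XX 0 h replicates 3, 4 and 5, XY 0 h replicates 2 and 6, XX 72 h replicates 7 and 8, and XY 72 h DMSO replicates 4 and 5). These 5 members stood beside 28.9% of all genes called.

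**Figure D3:**
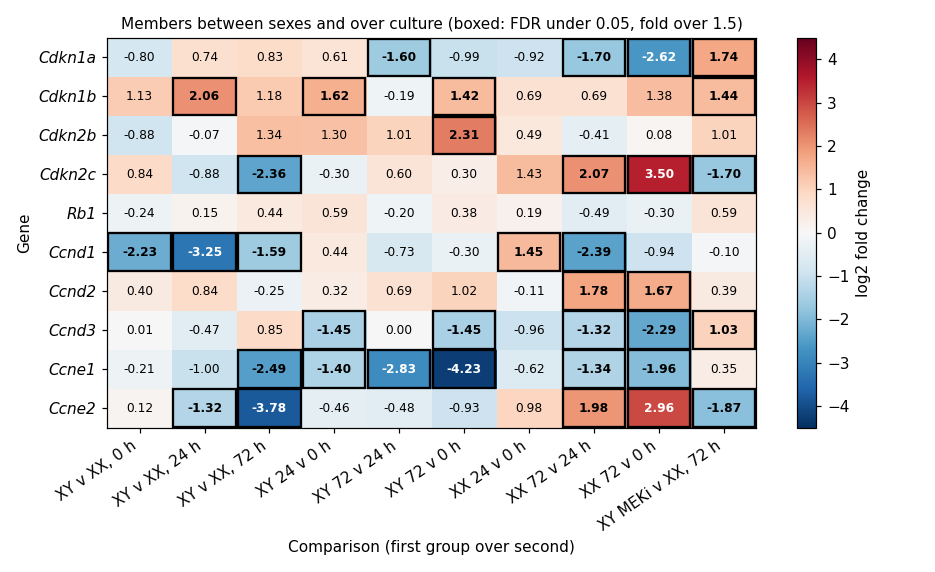
Log2 fold changes of the 10 genes (vertical axis) in 10 comparisons (horizontal axis, first group over second), with colour from blue (lower) to red (higher) and the value printed in each cell. Boxes mark calls at a fold over 1.5 and FDR under 0.05; Rb1 has none, and Ccne2 is -3.78 for XY against XX at 72 h.

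The inhibitor comparisons asked whether the members of XY germ cells depended on FGF receptor or MEK1/2 signalling in the gonad. At 24 h no member was called with either inhibitor. For FGFRi this stood beside 0.262% of all genes and for MEKi beside 0.164%; for each, 0 members had an unadjusted p under 0.05 in limma's treat test, and edgeR, DESeq2 and limma without the fold threshold in the null called 0 as well, the last still asking for an observed fold over 1.5.

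The intervals of these differences show what sizes remain possible. With 24 h FGFRi, Ccne1 was at 14.8, 21.2, 13.2 and 15.3 CPM against 24.4, 17.2, 32.3 and 22.7 with DMSO (log2 -0.58, 95% confidence interval -1.13 to -0.04). Cdkn1a was at 59.9 to 104 CPM against 43.3 to 73.5 (0.53, 0.20 to 0.87), with an FDR of 0.041 in limma without the fold threshold but an observed fold under 1.5. Ccnd1 was at 8.68 to 13.2 CPM against 14.6 to 18.2, the 1 member whose libraries did not overlap (-0.51, -1.12 to 0.10), and Ccne2 at 24.3 to 53.0 against 33.3 to 59.2 CPM (-0.56, -1.03 to -0.09). All of these differences also lie between pools.

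With 24 h MEKi, Cdkn1b was at 10.4 to 13.3 CPM against 13.4 to 22.9 with DMSO, without overlap (log2 -0.64, 95% confidence interval -1.18 to -0.10), and Ccne1 at 32.5 to 38.9 CPM against 17.2 to 32.3, also without overlap (0.52, 0.09 to 0.94). The interval of Ccnd3 left out 0 too (0.30, 0.02 to 0.59), with overlapping libraries. Cdkn2b gave -1.06 (-2.12 to 0.00), an interval too wide at 0.531 to 4.67 CPM to place it. In the 24 h MEKi libraries the 35 markers of other cell types summed to 397 to 665 CPM against 187 to 381 with DMSO, with 8 blood genes at 188 to 471 against 24.4 to 116 CPM, and their part in these differences was not tested.

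At 72 h with FGFRi no member was called either, beside 0.00656% of all genes, with 0 members under an unadjusted p of 0.05 in limma's treat test and 0 calls by edgeR, DESeq2 and limma without the fold threshold. For no member did the FGFRi and DMSO libraries separate. Ccne1 was at 2.37, 7.82, 3.48 and 6.04 CPM, Ccne2 at 36.9, 45.7, 34.8 and 36.2 CPM, and Ccnd1 at 6.94, 5.55, 10.4 and 11.6 CPM. Their log2 differences from DMSO were 0.28 (95% confidence interval -0.68 to 1.24), 0.05 (-0.38 to 0.47) and -0.37 (-0.99 to 0.24), that of Ccne1 turning to -0.31 without XY 72 h DMSO replicate 4. Cdkn2b, at 12.7, 13.6, 9.67 and 12.5 CPM against 5.82, 9.20, 14.0 and 6.64 with DMSO, was the 1 member whose interval left out 0 (log2 0.58, 0.01 to 1.15; FDR 0.327 without the fold threshold). The tightest intervals were those of Rb1 (-0.14 to 0.40) and Ccnd3 (-0.42 to 0.14), and the widest that of Cdkn2c (-1.88 to 0.26).

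At 72 h with MEKi, 3 cyclin genes, Ccne1, Ccne2 and Ccnd1, were called higher than with DMSO, and no member was called lower. The 3 higher members stood beside 4.01% of all genes called higher and 9.12% called in either direction, and the median log2 difference of the 10 members was 0.65 against 0.01 over all genes tested. The 4 CDK inhibitors and Rb1 did not pass the test.

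Ccne1 was at 19.9, 25.8, 20.6 and 36.1 CPM in the 4 MEKi libraries against 5.82, 0.836, 3.99 and 4.65 CPM with DMSO. The lowest MEKi library stood above the highest DMSO library, and the difference was 7.13-fold (log2 2.83 ± 0.411, 95% confidence interval 2.01 to 3.66, FDR 3.51e-05). Ccne2 was at 153, 132, 137 and 156 CPM against 39.8, 34.7, 32.6 and 44.5 CPM, 3.76-fold higher (log2 1.91 ± 0.190, FDR 3.83e-07). Both calls held in all 18 settings, but the Ccne1 difference fell to 2.21 log2 units without XY 72 h DMSO replicate 4 (FDR 0.0023).

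Ccnd1 was at 37.7, 25.6, 27.4 and 22.3 CPM with MEKi against 12.1, 6.27, 12.7 and 7.96 CPM with DMSO. The groups did not overlap and the difference was 2.81-fold (log2 1.49 ± 0.260, FDR 0.00878), but without XY 72 h DMSO replicate 4 the call was lost (FDR 0.11). The 35 markers of other cell types summed to 159 to 295 CPM with MEKi and 241 to 267 CPM with DMSO. Endothelial (20.4 to 39.1 against 44.3 to 47.3 CPM) and mesonephric markers (5.37 to 7.44 against 24.2 to 25.3 CPM) were lower with MEKi without overlap. The ranges of Sertoli (33.7 to 105 against 24.0 to 35.8 CPM), blood (19.8 to 31.8 against 30.0 to 65.0 CPM), granulosa and interstitial markers overlapped, and the part of these cells in the differences with MEKi was not tested.

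Cdkn1a, at 34.9 to 40.3 CPM with MEKi and 15.2 to 26.8 CPM with DMSO, separated without overlap but missed the threshold (log2 0.91, 95% confidence interval 0.46 to 1.36, FDR 0.41); limma without the fold threshold in the null called it. Ccnd2 was at 63.5 to 78.1 against 31.9 to 64.5 CPM (0.65, 0.28 to 1.01). The intervals of Cdkn1b (-0.19 to 0.70), Cdkn2b (-0.95 to 0.29), Cdkn2c (-0.25 to 1.57), Rb1 (-0.12 to 0.42) and Ccnd3 (-0.09 to 0.45) all held 0. With MEKi, Cdkn1b was at 17.2 to 21.3 CPM and Cdkn2b at 2.74 to 10.9 CPM.

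**Figure D4:**
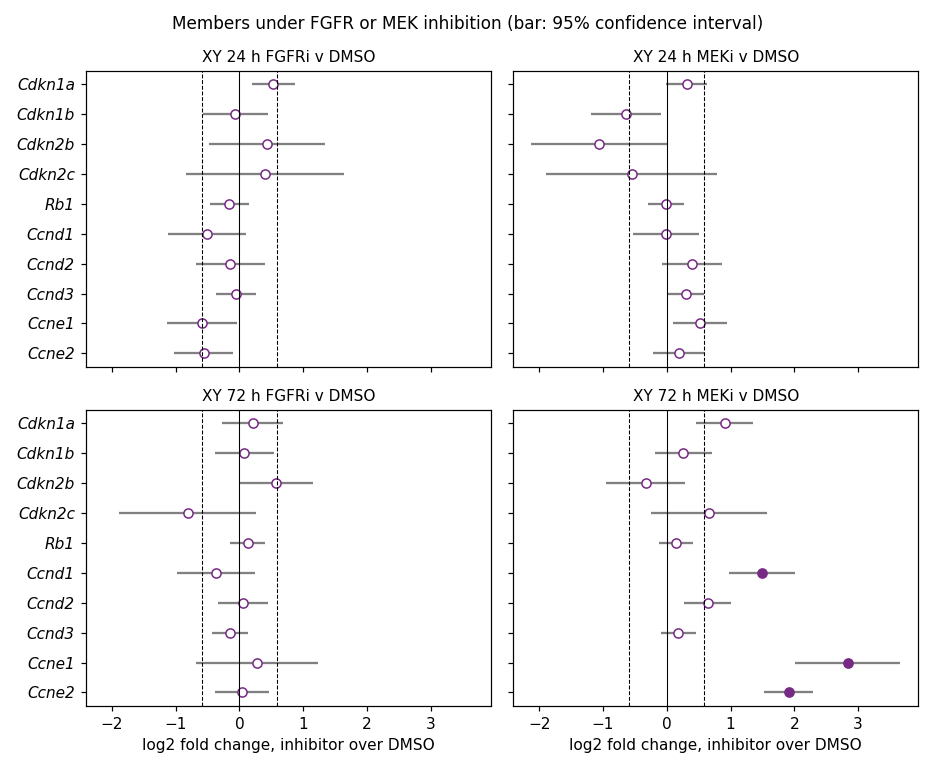
Log2 fold change of each gene (vertical axis) with inhibitor over DMSO in XY germ cells (horizontal axis), for FGFRi and MEKi at 24 h and 72 h; bars are 95% confidence intervals, dashed lines a fold of 1.5 in either direction, and filled points calls. Filled points appear only with MEKi at 72 h: Ccnd1 at 1.49, Ccne1 at 2.83 and Ccne2 at 1.91.

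The 2 inhibitors were also set against each other at 72 h, within 1 pool and at the same dose. Ccnd1 was 3.63-fold (log2 1.86 ± 0.224, FDR 1.16e-05), Ccne1 5.87-fold (FDR 7.54e-07) and Ccne2 3.64-fold (FDR 1.69e-08) higher with MEKi than with FGFRi, and these calls held in all 18 settings, with Ccne1 at 1.87 log2 units in place of 2.55 without XY 72 h FGFRi replicate 2; 12.7% of all genes were called, and 5.71% were higher with MEKi. For Ccne1 and Ccne2 the response to MEKi was larger at 72 h than at 24 h, by 2.32 ± 0.462 log2 units (FDR 0.0191) and 1.73 ± 0.275 log2 units (FDR 0.00815), beside 1.89% of all genes. For Ccne1 this call was lost without XY 72 h DMSO replicate 4 (1.67 log2 units, FDR 0.236) and for Ccne2 in 3 of 26 settings, among them leaving out XY 24 h DMSO replicate 5 (highest FDR over all settings, 0.171). The same difference for Ccnd1, 2.84-fold, missed the threshold (FDR 0.18).

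Set against the starting point and against the ovary, the MEKi cells at 72 h lay apart from both. Against XY cells at 0 h, 7 members were called beside 23.9% of all genes, a count that fell to 4 without XY 0 h replicate 3. Ccne1 was still 2.63-fold lower than at 0 h (FDR 4.74e-05) and Ccnd3 2.41-fold lower (FDR 2.86e-06), and Cdkn1b (3.21-fold, FDR 0.00143), Ccnd2 (3.17-fold, FDR 2.13e-05), Cdkn2b (3.95-fold, FDR 0.0109), Ccnd1 (2.29-fold, FDR 0.0235) and Ccne2 (1.97-fold, FDR 0.0344) were higher. The Ccnd1, Cdkn1b, Cdkn2b and Ccne2 calls were each lost in at least 1 setting.

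Against XX cells at 72 h, 5 members were called beside 30% of all genes. Ccne2 was 3.65-fold lower (FDR 9.41e-12) and Cdkn2c 3.25-fold lower (FDR 0.00285) in the MEKi-treated XY cells, and Cdkn1a was 3.35-fold (FDR 0.00117), Cdkn1b 2.71-fold (FDR 0.0217) and Ccnd3 2.05-fold (FDR 0.0195) higher. Ccnd1 (22.3 to 37.7 against 23.4 to 36.4 CPM) and Ccne1 (19.9 to 36.1 against 14.5 to 29.1 CPM) overlapped between MEKi-treated XY and XX cells, with log2 differences of -0.10 and 0.35. Summed Sertoli (33.7 to 104.9 against 12.0 to 33.55 CPM) and endothelial markers (20.4 to 39.1 against 7.74 to 12.0 CPM) were higher with MEKi without overlap. The sums of the other marker sets overlapped, and the part of these cells was not tested. Without XX 72 h replicate 4 the count fell to 3, and the Cdkn1b and Ccnd3 calls were lost, Cdkn1b moving from 1.44 to 0.82 log2 units (FDR 0.471). Of 18 settings, the Ccnd3 call was lost in 6, that of Cdkn2c in 3, that of Cdkn1b in 2 and that of Cdkn1a in 1. For Cdkn2c these included leaving out XY 72 h MEKi replicate 4 (highest FDR over all settings, 0.141). The Ccne2 call held in all 18.

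Across the 10 groups the order of the levels differed from gene to gene. Ccne2 ran from 37.3 ± 11.9 CPM in XY 24 h FGFRi to 515 ± 61.3 CPM in XX 72 h (SD, n = 4); the XX 72 h group stood clear of XX 24 h (152 ± 69.3 CPM), which overlapped XY 72 h MEKi (144.5 ± 11.7 CPM); XY 0 h (77.6 ± 25.4 CPM) did not overlap the latter, whereas the groups below XY 0 h each overlapped the next. Ccne1 was highest in XX 0 h (73.5 ± 1.76 CPM) and XY 0 h (62.2 ± 3.97 CPM), which did not overlap, and lowest in XY 72 h DMSO (3.82 ± 2.13 CPM) and XY 72 h FGFRi (4.93 ± 2.47 CPM), which did. For Ccnd1 the order ended in XX 24 h (159 ± 28.3 CPM) above XX 0 h (53.6 ± 7.29 CPM) without overlap, with XX 72 h and XY 72 h MEKi next and level with each other.

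Cdkn1b was lowest in the 4 groups XX 0 h, XX 24 h, XY 0 h and XX 72 h, each overlapping the next, the last of them overlapping XY 24 h MEKi (11.6 ± 1.22 CPM). The other 5 XY groups had higher means than XY 24 h MEKi, whose libraries were at 10.4 to 13.3 CPM. XY 72 h DMSO came next without overlap, but XY 72 h FGFRi (lowest 12.5 CPM) and XY 24 h FGFRi (lowest 12.05 CPM) overlapped XY 24 h MEKi. Up to XY 72 h MEKi (19.2 ± 1.71 CPM) each of the 5 overlapped its neighbour. Cdkn2b was highest in XY 72 h FGFRi (12.1 ± 1.71 CPM) and Cdkn2c in XX 72 h (13.5 ± 1.29 CPM), the latter without overlap with the next group. For Rb1 each group overlapped the next, from 31.9 ± 1.48 CPM in XX 72 h to 51.5 ± 12.0 CPM in XY 24 h MEKi (SD, n = 4).

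Over the means of the 10 groups, the genes most like Ccne1 in log2 CPM were Usp1 (Pearson r 0.991), the histone methyltransferase gene Ezh2 (0.989) and Rrm2 (0.985), which encodes a subunit of ribonucleotide reductase. Those most like Ccne2 were Eif1ad (0.988), the histone chaperone gene Asf1b (0.981) and Arhgap5 (0.981). Cdkn1a was closest to Ifitm3 (0.977), Cdkn1b to Fkbp11 (0.985), Cdkn2b to Chd5 (0.969), Cdkn2c to Cyb5rl (0.984), Ccnd1 to the non-coding gene Oip5os1 (0.957) and Ccnd3 to Sulf2 (0.966). Among members, the strongest pair was Cdkn2c with Ccne2 (r 0.86), an inhibitor and a cyclin. Both had their highest mean in XX 72 h, at 13.5 and 515 CPM, against at most 4.35 and 152 CPM in any other group. How far the correlation rests on XX 72 h was not tested. Ccne1 ran against Cdkn2b (r -0.82) and Cdkn1b (r -0.68) and with Ccnd3 (r 0.66), and Cdkn1a against Cdkn2c (r -0.75). These values describe 10 points that share pools and culture times.

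Of 30 other genes of the G1/S pathway, 27 were tested. With 72 h MEKi, 6 were higher and none lower than with DMSO, beside 4.01% of all genes higher, with a median of 0.72 log2 units: the CDK inhibitors Cdkn1c (log2 1.49, FDR 3.86e-07) and Cdkn2d (1.59, FDR 0.000247), the kinase Cdk2 (0.98, FDR 0.0291), E2f3 (1.41, FDR 0.00488), the atypical repressor E2f8 (2.59, FDR 0.000432) and Mycn (1.28, FDR 0.00507). Cdkn1c, encoding p57, was at 201 to 250 CPM with MEKi and 63.7 to 98.5 CPM with DMSO, and at 153 to 216 CPM in XX cells at 72 h. Cdkn2d, the INK4 gene for p19, was at 31.5 to 38.2 against 8.78 to 14.6 CPM. With FGFRi no gene of this list was called at 72 h by limma. At 24 h Cdk6 was lower (log2 -1.35, FDR 0.031), beside 0.262% of all genes called, in a comparison that also lies between pools. Its libraries were at 25.3 to 45.6 CPM with FGFRi and 78.4 to 100 CPM with DMSO. With 24 h MEKi they were at 36.1 to 64.1 CPM, also below DMSO without overlap, though no gene of the list was called there.

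During XY culture 14 of the 27 were lower and 1 higher at 72 h than at 0 h, beside 15.2% of all genes lower and 20.2% higher. The falls included E2f8 (log2 -4.36), Mycn (-3.23), the CDK phosphatase gene Cdc25a (-2.02), the E2F partner Tfdp1 (-1.72) and Skp2 (-1.35), whose product marks p27 for degradation; E2f6, a repressor E2F, was the 1 higher gene (1.66). During XX culture 13 were lower and 1 higher, beside 18.4% of all genes lower and 18.8% higher, the 1 higher gene being Fbxw7 (1.66), whose product targets cyclin E for degradation. When the sexes were compared at 72 h, 6 of the list were higher and 6 lower in XY cells, a number near that of genes at large (41% called, 22.8% higher and 18.1% lower). The higher ones included Cdk4 (1.77, FDR 9.47e-13) and Cdk6 (1.55, FDR 0.00155), the partners of D-type cyclins.

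The replication and proliferation genes gave a further readout: all 16 of that list were lower in XY cells at 72 h than at 0 h (15.2% of all genes were), and 13 of 16 in XX cells (18.4%). Their summed level was 5236 to 5980 CPM in XY cells at 0 h, 1618 to 1920 CPM at 72 h with DMSO and 1688 to 1849 CPM with FGFRi. With MEKi it was 2721 to 3502 CPM, above every XY DMSO and FGFRi library of that time, and 7 of the 16 were called higher than with DMSO (4.01% of all genes were), among them Mki67 (log2 2.27), Rrm2 (2.21) and Cdc6 (1.79). XX cells at 72 h stood at 2666 to 2914 CPM, overlapping the MEKi libraries.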

How the data were processed

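The authors demultiplexed poly(A)-primed reads by sample index with scPipe, mapped them to GRCm39 with Rsubread, assigned them to exons by strand and collapsed UMIs. The deposited values are counts per gene, not normalised; versions and the annotation release are not given in the sources used here. UMIs were 10 bases long by the methods, of which the authors' code reads 8. The submitters' processing notes also name limma and edgeR.

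Each of the 40 libraries was placed in its group by its description in the labels. Nothing in the labels ties libraries to separate litters, so p-values measure the spread between these pooled samples. Genes were named by Ensembl identifier from GENCODE M39 (40391 of 42422 matched), and genes were kept by filterByExpr (minimum count 10, minimum total 15). Libraries were scaled by TMM (edgeR 4.0.16) and fitted with voomWithQualityWeights in a model of group means holding the 40 libraries together; treat then tested each contrast against 1.5-fold (limma 3.58.1, R 4.3.3), with Benjamini-Hochberg adjustment over the 15252 genes. Confidence intervals come from eBayes on the same fit and CPM from TMM-scaled library totals. DESeq2 1.42.0 and edgeR were alternatives. The fit was also run on simulated counts, the outcome of which is not given here.

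The members and all gene lists were chosen with earlier results of these data known. The text names the 10 members, the genes of the other G1/S and proliferation lists called in a comparison, and the genes most like a member over group means. Of the G1/S list, Lin54 was not matched and Lin52 and Myc had too few counts to be tested.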

Additional observations from a re-analysis of the deposited data

Results flagged for a closer look

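In 100 groups of 4 libraries (10 members in 10 groups), 4 held a library far from the other 3, where chance gives about 5 in 100. Cdkn2c was at 0.677 CPM in XY 72 h FGFRi replicate 2, with the nearest library at 2.16 CPM. Ccnd2 was at 47.2 CPM in XY 0 h replicate 5, the nearest being 21.0 CPM. Ccne1 was at 38.9 CPM in XY 24 h MEKi replicate 6 and at 32.9 CPM in the nearest. Ccne2 was at 255 CPM in XX 24 h DMSO replicate 6 and at 130 CPM in the nearest.

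By a test of the difference itself (limma's treat on an interaction term, n = 4 per group), 7 of 20 effects of members differed between times, 2 of 10 for the MEKi response beside 1.89% of all genes and 5 of 10 for the sex difference beside 28.9%. The response to MEKi was larger at 72 h than at 24 h for Ccne1 (by 2.32 log2 units; 1.67 and no longer called without XY 72 h DMSO replicate 4) and Ccne2 (1.73, a call lost in 3 of 26 settings), both of which were higher with MEKi in 4 of 4 libraries at 72 h. The XY less XX difference rose from 0 h to 72 h for Cdkn1a (1.63, a call lost in 4 of 26 settings) and Cdkn2b (2.23, lost in 13 of 26) and fell for Cdkn2c (-3.21), Ccne1 (-2.27) and Ccne2 (-3.89).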

How the results depend on the processing

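Of 3380 values of members under an alternative, 3258 stayed on their side of the threshold, 66 lost a call and 56 gained one. Of the 3258, 3166 also kept their direction and 92 changed sign, none of the latter called in either fit. In 4 of these the reported value was over 0.5 log2 units: with the replicate number as a block, Cdkn1b for XX 72 h v 0 h (1.38 to -0.30) and v 24 h (0.69 to -1.21) and Cdkn2b for 72 h MEKi v XX (1.01 to -0.18), and, without XY 24 h MEKi replicate 2, Cdkn2c for 24 h MEKi v DMSO (-0.55 to 0.02). A further 20 had too few counts to be tested among only the libraries compared, 1 of them a call (Cdkn2b, 72 h MEKi v XY 0 h). Of 56 calls among 180 member comparisons, 35 held in every alternative that could be tested. Leaving the fold threshold out of the null (eBayes with an observed fold over 1.5) moved the count of members called from 1 to 3 for XY v XX at 0 h, 3 to 6 at 24 h and 4 to 8 at 72 h, from 3 to 5 for XY 24 h v 0 h, 2 to 5 for XY 72 h v 24 h, 4 to 7 for XY 72 h v 0 h, 1 to 5 for XX 24 h v 0 h, 3 to 5 for 72 h MEKi v DMSO and 3 to 7 for MEKi v FGFRi. XX 24 h v 0 h, with 1 member called, gave 3 with edgeR and 2 each with DESeq2, median-of-ratios scaling, no sample weights and the counts of the shared index taken out. With DESeq2, 72 h MEKi v XX gave 3 in place of 5 and the change of the MEKi response 1 in place of 2. Without a filter on low counts the latter gave 1 and XY 24 h v 0 h gave 1 in place of 3. The shares of all genes called under these settings are not given beside these counts, which show only how the member calls moved. The shared index was taken out because 16 pairs of libraries of the 2 pools carry the same sample index; 1.9% of the partner's counts was removed, a share estimated over genes low in the first pool's group, a limit set after seeing the data.

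Leaving out 1 library at a time gave 4 to 7 members for 72 h MEKi v XY 0 h, 1 to 2 for XX 24 h v 0 h, 3 to 5 for 72 h MEKi v XX 72 h, 1 to 2 for the change of the MEKi response and 3 to 5 for the change of the sex difference, the lowest counts coming without XY 0 h replicate 3, XX 72 h replicate 4, XY 24 h DMSO replicate 5 or XY 72 h DMSO replicate 4, and XX 72 h replicate 8 or XY 72 h DMSO replicate 4; the highest for XX 24 h v 0 h came without XX 24 h replicate 9. With the replicate number as a block, the counts were 0 for XX 24 h v 0 h, 3 for XX 72 h v 24 h, 4 for 72 h MEKi v XY 0 h, 2 for 72 h MEKi v XX and 3 for the change of the sex difference. In the same order, calls over all genes fell too, from 493 to 234, 3393 to 1127, 3647 to 2978, 4578 to 1697 and 4406 to 2586. With this block Cdkn1b for XY v XX at 72 h was called (2.73 log2 units in place of 1.18). The replicate numbers only name libraries: the deviations of same-numbered libraries of the same sex correlated with a median r of -0.00857 over 62 pairs, 1 of them above 0.1. At 1178953 to 5199153 counts per library, Cdkn2b and Cdkn2c rest on few molecules, and absence of a call for them says little.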
